A study of Mus musculus with 12 samples.

Results

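The effect of a lung-seeded tumour on splenic T cells was compared between regulatory T cells (Treg) and conventional CD4+ T cells (Tconv), gene by gene. For each gene the log2 fold change in Treg (tumour-bearing over normal spleen) was set against that in Tconv. The difference of the 2 log2 changes is called the interaction. It draws on 8 of the 12 libraries of the series, 4 spleen groups of 2 libraries each, and it was tested for 13509 of the 24062 genes in the count table. A positive interaction means that the change in Treg was higher than that in Tconv, and a negative one that it was lower.

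All mice carried the C57BL/6 strain label. Tumour-bearing (TB) mice had received 500000 TC-1 cells, a mouse tumour line, by tail vein 3 weeks before their spleens were taken, and normal mice had none. CD4+ cells were enriched without touching CD4 itself and sorted into GFP+ cells (Treg) and GFP- cells (Tconv), so the groups are TB Treg, normal Treg, TB Tconv and normal Tconv. The gene that drives GFP, the age and sex of the mice, any injection given to normal mice and the number of mice behind a library are not given in the sources used here. The 2 libraries of each group are not stated to be from different animals. P-values therefore measure the spread between these libraries, which may in part be technical.

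Treg are CD4+ T cells that restrain other lymphocytes and depend on the transcription factor Foxp3. They carry the high-affinity receptor for interleukin 2 (IL-2), whose alpha chain is Il2ra, and IL-2 acts through Janus kinases and STAT5, which induces feedback inhibitors such as Cish and Socs2. Activated Tconv can take up several of these genes without being Treg, and cyclic AMP, which T cells raise in response to adenosine and prostaglandins, induces genes such as Crem, Rgs2 and Pde4d.

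The sort labels matched Foxp3 RNA. Foxp3 stood at 989 and 1042 CPM (counts scaled to library size, not corrected for gene length) in normal Treg and 1028 and 1004 in TB Treg, against 18.1 and 19.6 in normal Tconv and 13.3 and 16.8 in TB Tconv. The Foxp3 interaction was 0.32 log2 units (SE 0.18, edgeR adjusted p = 0.726), and its change in Tconv was not called (log2 -0.32, adjusted p = 0.141). Other gene models cover 18.6% of Foxp3 exonic bases on the same strand and 26.9% on the opposite strand. Total counts ran from 18624132 to 24111546 over the 12 libraries, a narrow span. In spleen, replicates differed by 3.56 to 9.72 times counting noise (chi-square per gene), most in TB Tconv. Both TB libraries of replicate 1 stood apart in immediate early genes, which stimulation or handling switches on within minutes: Fos was at 157 CPM in TB Treg 1 and 26.6 in TB Treg 2, and at 259 in TB Tconv 1 and 29.1 in TB Tconv 2. Normal libraries held 14.3 to 69.7 CPM of Fos. Counts are therefore also given without these 2 libraries, a choice made after seeing the data.

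Both cell types differed between TB and normal mice, and mostly in the same way. In Treg, 2066 genes were called (15.3%; 918 higher, 6.8%, and 1148 lower, 8.5%), and in Tconv 2328 (17.2%; 1316 higher, 9.74%, and 1012 lower, 7.49%). A call is an adjusted p under 0.05 in edgeR's quasi-likelihood test. The split into higher and lower depends on scaling: 44.4% of Treg calls and 56.5% of Tconv calls were higher, against 66.5% and 78.5% when libraries were scaled by total count alone. The 2 arms share no library, but no label says whether Treg and Tconv came from the same mice, so animals or handling may be shared. Of 1132 genes called in both arms, 1123 moved in the same direction (99.2%) and 9 in opposite directions. Across the 8669 genes whose mean log2 CPM reached 3, the 2 changes had a Pearson r of 0.69, given as a description, since genes are not independent replicates.

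Against that shared background, 115 genes (0.851% of those tested) had a change that differed between the cell types, 30 higher in Treg (0.222%) and 85 lower (0.629%). At an unadjusted p under 0.05 there were 1097 genes (8.12%). The median interaction over all tested genes was -0.02 log2 units and the median SE 0.17, and 64 of the 115 differed by at least 2-fold (14 higher and 50 lower). Without both TB libraries of replicate 1 the calls came to 13 higher and 28 lower, of which 13 and 26 were among those above, with TB groups of 1 library that are assumed to vary like the rest. Genes named below that were not called then, with the same sign, were Ston1, Bcl2l11, Cish, Socs1, Ctla4, Itgb8, Gpr83, Nrp1, Ikzf2, Gucy1b3, Setbp1, Nav2, Cd44, Tnfsf11, Lta, Treml2, Rasgrp2, Rnf157, Elovl6, Dgat1, Ust, Nr3c1, Angptl2, Foxn3, Lrmp and Pacs2. Leaving out any 1 spleen library gave 14 to 18 higher and 28 to 61 lower genes. In all 115 genes the 4 TB minus normal differences of the Treg libraries lay wholly to one side of the 4 of the Tconv libraries, which was also so for 29.5% of all tested genes.

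The 85 lower genes were mostly genes that rose in Tconv. Of them, 59 rose in Tconv with no call in Treg, and 11 rose in both but by a larger fold in Tconv. Another 7 fell in Treg and rose in Tconv, and 8 fell in Treg with no call in Tconv. Of the 30 higher genes, 17 rose in Treg with no call in Tconv, and 10 rose in both but by a larger fold in Treg. Another 2 rose in Treg and fell in Tconv, and 1 fell in Tconv with no call in Treg. These counts describe the test that selected the genes and add no support to it.

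**Figure D1:**
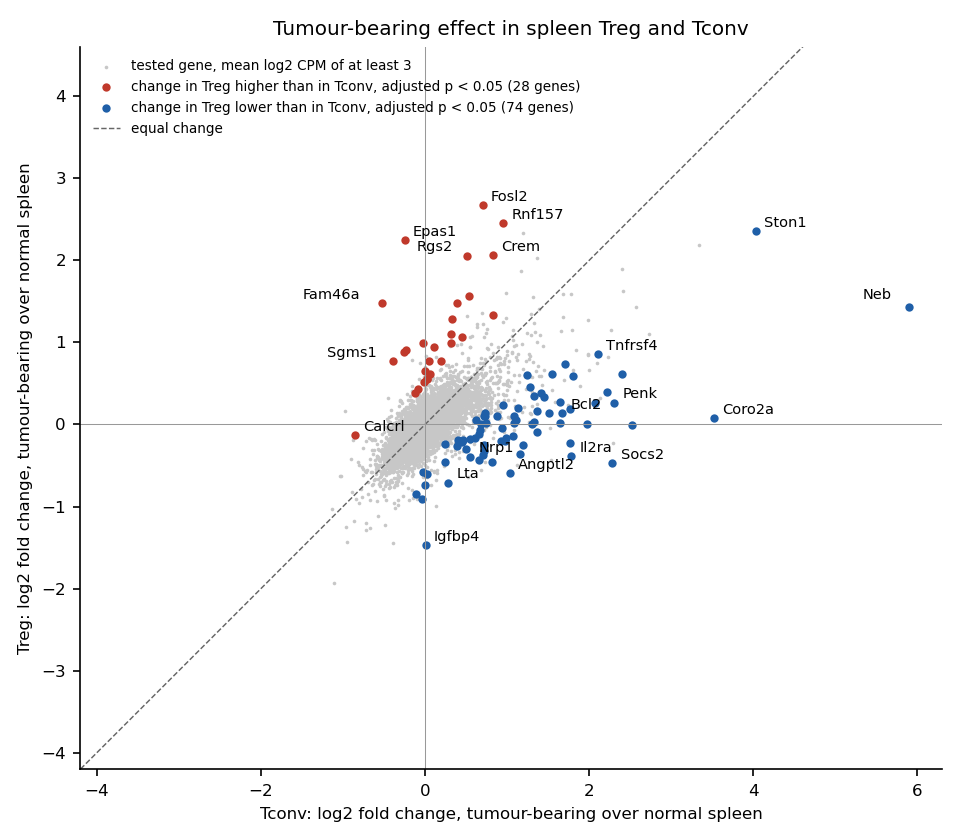
Each point is 1 of 8669 genes, with its log2 fold change of TB over normal spleen in Tconv on the horizontal axis and in Treg on the vertical axis; red and blue points are the 28 and 74 genes among them whose change was higher or lower in Treg at an adjusted p under 0.05, and the dashed line marks equal change. Most genes lie along that line, Neb and Coro2a lie far to its right, and Epas1 and Fosl2 lie above it.

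Among the genes plotted there, Neb and Coro2a had the largest negative interactions, and both were low in normal Tconv. Neb (chr2:52136647-52378474, minus strand) encodes nebulin, the ruler protein of muscle thin filaments. Its level was 34.8 and 43.2 CPM in normal Treg, 90.4 and 120 in TB Treg, 1.27 and 1.86 in normal Tconv and 97.2 and 90.7 in TB Tconv. All 4 groups were apart except that TB Treg and TB Tconv overlapped. Neb thus rose 2.69-fold in Treg and 59.4-fold in Tconv, and the interaction was -4.46 log2 units (SE 0.31, edgeR adjusted p = 1.72e-05).

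Coro2a (chr4:46536937-46602202, minus strand) encodes a coronin, a family of actin-binding proteins. It stood at 284 and 294 CPM in normal Treg and 310 and 301 in TB Treg, and at 15.5 and 12.7 in normal Tconv and 161 and 162 in TB Tconv. The Treg groups lay close together, while TB Tconv lay far above normal Tconv. The change was 1.06-fold in Treg and 11.5-fold in Tconv, an interaction of -3.44 (SE 0.19, edgeR adjusted p = 2.51e-06). Mean Coro2a in Tconv was 4.88% of that in Treg in normal mice and 52.8% in TB mice.

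Ston1, which encodes stonin 1, an adaptor of endocytosis, rose in both. Normal Treg held 32 and 27.9 CPM and TB Treg 154 and 153, a 5.12-fold rise, while normal Tconv held 6.01 and 4.77 and TB Tconv 86.6 and 88.8, a 16.3-fold rise. The groups did not overlap. The Ston1 interaction was -1.67 (SE 0.25, edgeR adjusted p = 0.00631), and the call was lost without normal Tconv 2 (adjusted p = 0.0692).

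Bcl2, the anti-apoptotic protein that guards the mitochondrial membrane, gave one of the most precise differences. It was at 207 and 210 CPM in normal Treg and 240 and 220 in TB Treg, and at 260 and 258 in normal Tconv and 844 and 805 in TB Tconv. TB Tconv stood above every other group. Bcl2 rose 3.19-fold in Tconv and its 1.1-fold difference in Treg was not called (edgeR adjusted p = 0.152), an interaction of -1.53 (SE 0.09, adjusted p = 3.02e-06). Bcl2l11, which encodes the pro-apoptotic partner BIM, moved the same way by less: its interaction was -0.66 (SE 0.10, adjusted p = 0.0114), with 136 and 150 CPM in TB Tconv against 99.5 and 108 in normal Tconv. The Bcl2l11 call was lost without normal Tconv 1, TB Tconv 2, TB Treg 2 or normal Treg 2 (adjusted p up to 0.0731). Of 18 genes of apoptosis and survival these were the 2 called in the interaction, against 0.851% of all tested genes. Mcl1 (-0.17, adjusted p = 0.784), Bcl2l1 (-0.34, 0.608) and Fas (-0.01, adjusted p = 1) were not called.

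Chains of the IL-2 receptor and feedback inhibitors of cytokine signalling were among the lower genes. Il2ra (chr2:11642807-11693193, plus strand) was at 942 and 1030 CPM in normal Treg and 726 and 782 in TB Treg, and at 16 and 15.6 in normal Tconv and 42.5 and 65.9 in TB Tconv. The 2 cell types thus moved towards each other while remaining far apart: mean Il2ra in Tconv was 1.6% of that in Treg in normal mice and 7.19% in TB mice. The Tconv rise was called (3.44-fold, edgeR adjusted p = 3.08e-05), the 1.31-fold lower level in TB Treg was not (adjusted p = 0.0742), and the interaction was -2.17 (SE 0.21, adjusted p = 0.000264).

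Il2rb, the beta chain that signals for IL-2 and interleukin 15, was at 1406 and 1335 CPM in normal Treg and 1402 and 1405 in TB Treg, and at 208 and 209 in normal Tconv and 416 and 631 in TB Tconv. The 2 TB Tconv libraries were far apart. Summed natural killer cell markers (7 genes), which mark cells that also carry Il2rb, were 42.6 to 49.2 CPM in normal Tconv and 65.4 to 97.7 in TB Tconv. Among them Klrb1c was at 20.9 and 19.1 in normal Tconv and 42.7 and 73.1 in TB Tconv 1 and 2. Eomes was at 25.9 and 21.1 in normal and 21.3 and 21.2 in TB Tconv. Gzma was at 1.58 and 1.62 in normal and 0.73 and 1.48 in TB Tconv. Klre1 was at most 1.21 and Ncr1 at most 0.673 in any spleen library, and Klra4 and Klra8 were at 0. The rise of the sum thus lay mainly in Klrb1c. The part of natural killer cells in the Il2rb result was not tested. The Il2rb interaction was -1.29 (SE 0.22, edgeR adjusted p = 0.0169), and the call held only when TB Tconv 1 or TB Tconv 2 was the library left out (over all 8 leave-outs -0.96 to -1.56, adjusted p up to 0.102). The common gamma chain gene Il2rg had an interaction of 0.17 (adjusted p = 0.827) and fell in Tconv (log2 change -0.40, adjusted p = 0.0084). A gene model on the same strand covers 30.5% of the exonic bases of Il2rg.

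Among the inhibitors, Socs2 was at 39.2 and 43.1 CPM in normal Treg and 29.6 and 29.7 in TB Treg, and at 2.55 and 2.86 in normal Tconv and 9.33 and 16.9 in TB Tconv. Its interaction was -2.76 (SE 0.30, edgeR adjusted p = 0.000473). Cish was at 169 and 185 CPM in normal Treg, 212 and 215 in TB Treg, 25.7 and 27.3 in normal Tconv and 82.3 and 83.8 in TB Tconv. Tconv libraries of Cish fell into 2 levels with no overlap, and so did those of Socs2. The Cish interaction was -1.38 (SE 0.19, adjusted p = 0.00409); gene models on the opposite strand cover 11.5% of its exonic bases, and no source used here says whether reads were counted by strand. Socs1, an inhibitor of interferon and cytokine signalling, rose 1.53-fold in Treg (91 and 97.4 against 64.8 and 57.9 CPM) and 2.93-fold in Tconv (80.4 and 95.5 against 28.8 and 31.2), an interaction of -0.93 (adjusted p = 0.0169) that was held only without TB Tconv 1 or normal Treg 2.

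Of the 28 genes listed as cytokine receptors, Janus kinases, STAT and SOCS genes, 5 were called lower in the interaction (Il2ra, Il2rb, Socs1, Socs2 and Cish) and 0 higher, against 0.629% and 0.222% of all tested genes. The list's median interaction was -0.05, against -0.02 over all tested genes. Of the lower calls 3 were left without normal Tconv 1, normal Tconv 2, normal Treg 1, TB Treg 1 or TB Treg 2. Stat5a (-0.04, edgeR adjusted p = 1), Stat5b (0.23, 0.475), Jak1 (-0.05, 0.992) and Jak3 (-0.30, 0.692), which carry the IL-2 signal, were not called. Socs3, another SOCS gene (-0.35, edgeR adjusted p = 0.643), and Pim1 (-0.46, 0.149) were not called either. Ifngr1, the ligand-binding chain of the interferon gamma receptor, rose in both arms. It went from 324 and 371 to 1404 and 1432 CPM in Treg and from 177 and 211 to 450 and 550 in Tconv. Its interaction of 0.66 missed the threshold (adjusted p = 0.066). Il7r rose in both as well, 2.34-fold in Treg and 1.63-fold in Tconv (interaction 0.52, adjusted p = 0.306).

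Because Cish is a standard STAT5 target, the letters around its RefSeq start (GRCm38.p6) are shown, from 250 bases before it; capitals mark matches to TTCNNNGAA, the core element bound by STAT dimers, which reads the same on both strands. Cish, chr9:107296409-107296678, plus strand: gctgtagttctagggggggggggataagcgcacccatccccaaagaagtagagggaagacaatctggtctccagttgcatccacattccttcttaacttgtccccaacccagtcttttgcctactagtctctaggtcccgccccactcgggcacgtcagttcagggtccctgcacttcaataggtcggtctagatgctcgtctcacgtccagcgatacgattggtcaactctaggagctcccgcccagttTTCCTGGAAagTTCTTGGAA
The 2 matches begin at base 251, the RefSeq start itself, and base 262 of the stretch, and do not overlap. Among the lower genes, 54 of 85 had an entry in the RefSeq promoter table (250 bases before to 50 after the start), and 6 of the 54 held the element (11.1%): Cish, Foxn3, Lta, Mdfic, Nod1 and Serpina3f. Among the higher genes it was 0 of 20 with an entry, of 30. Of all 27025 genes there, 9.55% held it, and over its 32851 promoters 8.3%, so the share among the lower genes was near that of genes at large.

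**Figure D2:**
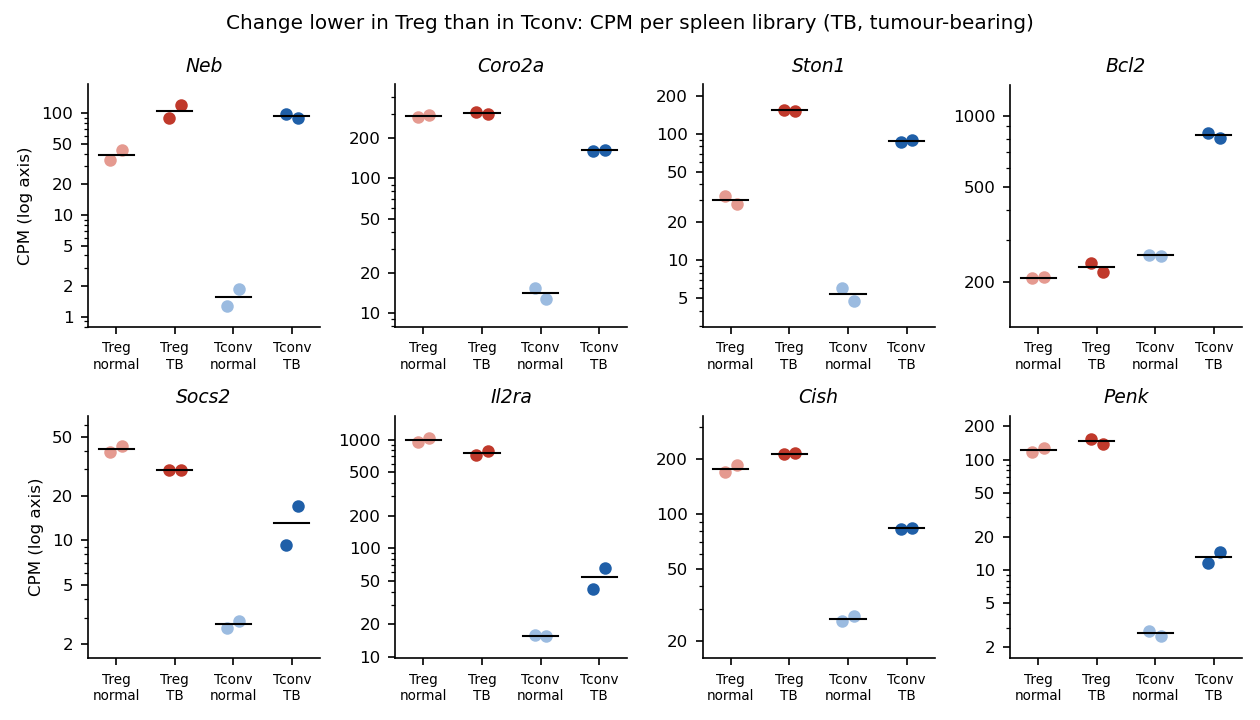
CPM on a log axis in each of the 8 spleen libraries for Neb, Coro2a, Ston1, Bcl2, Socs2, Il2ra, Cish and Penk; points are single libraries, bars are group means, and each panel has its own axis. In each panel TB Tconv stands above normal Tconv, while the 2 Treg groups are closer together except for Neb and Ston1, which also rose in Treg.

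Genes that mark Treg were also found among the lower genes. Of 20 Treg identity genes, all tested, 9 were called lower in the interaction and 0 higher, against 0.629% and 0.222% of all tested genes: Il2ra, Socs2, Itgb8, Tnfrsf4, Gpr83, Nt5e, Ctla4, Nrp1 and Ikzf2. The list's median interaction was -0.98, with a median change of 0.09 in Treg and 1.08 in Tconv. In Tconv 13 of the 20 rose and 0 fell; in Treg 6 rose and 2 fell. Of all tested genes 9.74% rose and 7.49% fell in Tconv, and 6.8% rose and 8.5% fell in Treg. Removing 1 spleen library left 5 to 8 lower calls, 5 of them without TB Treg 1, TB Treg 2, TB Tconv 2 or normal Tconv 2, and 12 to 13 rises in Tconv. Without both TB libraries of replicate 1, Il2ra, Socs2, Tnfrsf4 and Nt5e kept their calls. Itgb8, Gpr83, Ctla4, Nrp1 and Ikzf2 then lost theirs, with the same sign. In bulk RNA, a change in the number of cells carrying a transcript and a change in transcript per cell cannot be told apart. Mean Foxp3 in Tconv was 1.86% of that in Treg in normal mice and 1.48% in TB mice.

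Ctla4, the inhibitory receptor that competes with CD28, and Tnfrsf4, the costimulatory receptor OX40, rose in both cell types. The fold rise was larger in Tconv, while the rise in CPM was larger in Treg. Ctla4 was at 381 and 462 CPM in normal Treg, 703 and 699 in TB Treg, 17.7 and 13.5 in normal Tconv and 49.9 and 51.9 in TB Tconv. Tnfrsf4 was at 322 and 315 in normal Treg, 583 and 573 in TB Treg, 12.2 and 11 in normal Tconv and 45.3 and 54.1 in TB Tconv. In both genes TB libraries lay above normal ones in each cell type without overlap. The interactions were -0.97 for Ctla4 (SE 0.17, edgeR adjusted p = 0.0178) and -1.24 for Tnfrsf4 (SE 0.17, adjusted p = 0.00391). The Ctla4 call was held only when normal Tconv 1 or normal Treg 1 was the library left out (adjusted p up to 0.127), while that of Tnfrsf4 was kept in all 8 leave-outs.

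Nt5e, the ectoenzyme CD73 that makes adenosine, and Itgb8, an integrin chain that activates TGF-beta, showed the plain form of the pattern, a rise in Tconv with no call in Treg. Nt5e was at 447 and 399 CPM in normal Treg, 453 and 453 in TB Treg, 71.8 and 64.2 in normal Tconv and 136 and 152 in TB Tconv (interaction -0.99, SE 0.12, edgeR adjusted p = 0.00126). Itgb8 was at 43.4 and 29.7 in normal Treg, 46.8 and 49.2 in TB Treg, 1.68 and 1.19 in normal Tconv and 5.89 and 7.41 in TB Tconv (-1.83, SE 0.37, adjusted p = 0.0447). The Itgb8 call was held only without normal Treg 2, and limma-voom did not make it. Ikzf2, which encodes the transcription factor Helios, had an interaction of -0.71 (adjusted p = 0.0404), held only without normal Tconv 1.

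Gpr83 and Nrp1 moved in opposite directions. Gpr83, a G protein-coupled receptor of Treg, fell from 159 and 159 to 124 and 113 CPM in Treg and rose from 11 and 13.3 to 19.2 and 19.1 in Tconv (interaction -1.08, SE 0.16, edgeR adjusted p = 0.00585). Nrp1, a semaphorin co-receptor used to mark thymus-derived Treg, fell from 591 and 580 to 444 and 450 in Treg and rose from 63.7 and 48.3 to 74.8 and 88.6 in Tconv (-0.94, SE 0.18, adjusted p = 0.0303). The arms of Nrp1 were near the threshold in Treg (adjusted p = 0.0489), and its interaction call was held only without normal Tconv 1 or TB Tconv 1.

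The other 11 of the list had no call. Tigit (-1.40, edgeR adjusted p = 0.0628) and Entpd1, which encodes CD39 (adjusted p = 0.057), missed the threshold narrowly, while Tnfrsf18, which encodes GITR, rose in both arms (-0.41, 0.364). Lrrc32, the gene of the TGF-beta anchor GARP, had at most 0.81 CPM in any Tconv library, too low to resolve its -2.52 (SE 1.08, adjusted p = 0.571). Of 24 effector Treg genes 0 were called in the interaction, as a share of 0.851% of all tested genes would also give. In Treg 10 rose (6 without TB Treg 2) and in Tconv 11 (6 without normal Tconv 2), against 6.8% and 9.74% of all tested genes. The interactions of Ccr8 (-0.72, adjusted p = 0.559), Gzmb (-1.15, 0.714), Pdcd1 (-0.52, 0.625) and Icos (-0.16, 0.723) all fell short. Il1rl1, which encodes the interleukin 33 receptor ST2, was at 37.5 and 59.5 CPM in normal Treg, 59.9 and 86.9 in TB Treg and at most 3.70 in any Tconv library. Its replicates were too far apart for a call (-0.62, SE 0.78, adjusted p = 0.941).

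**Figure D3:**
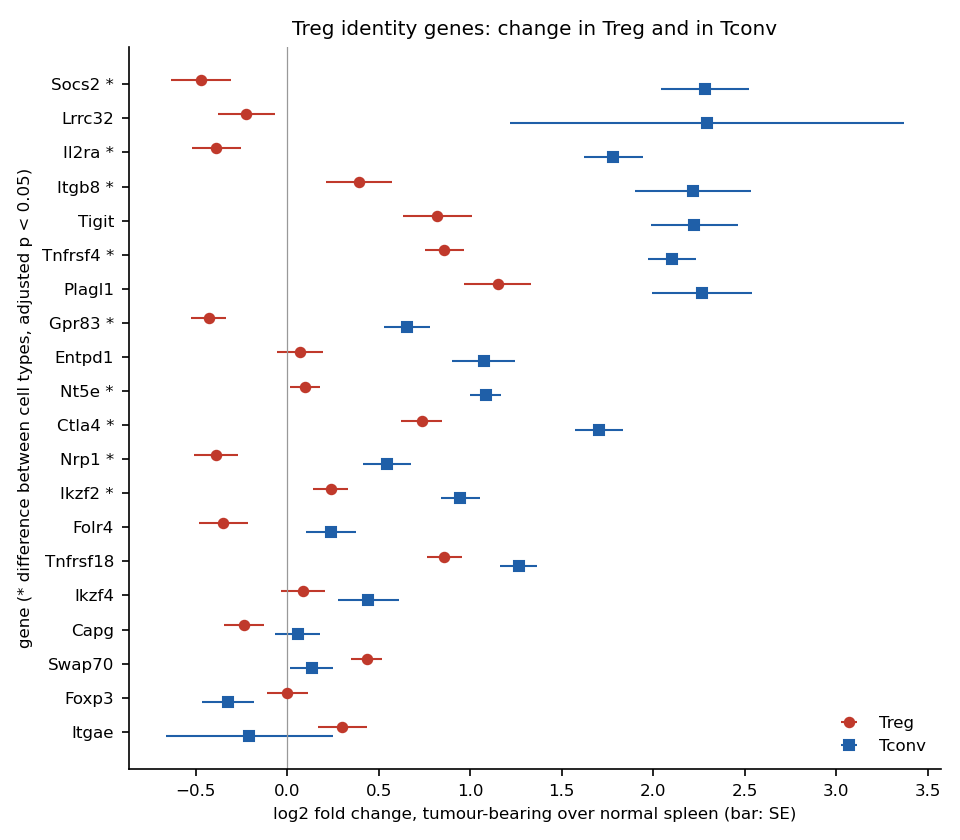
Log2 fold change of TB over normal spleen, with its SE as a bar, for 20 Treg identity genes in Treg (red circles) and Tconv (blue squares); an asterisk marks an interaction with adjusted p under 0.05. In 17 of the 20 the Tconv value lies to the right of the Treg value, and Foxp3, Swap70 and Itgae are the exceptions.

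The 85 lower genes were next placed by their level in the 2 cell types. In normal spleen, mean CPM was higher in Treg than in Tconv for 72 of the 85 lower genes and for 9 of the 30 higher genes, against 48.9% of all tested genes. These means come from the normal libraries that also enter the interaction, so this is a description. The tumour libraries give no term to the interaction, although they share its expression filter and its estimate of the spread. There, 51 of the 85 lower genes were called higher in Treg than in Tconv, as were 27.2% of all tested genes, and 30 were called lower, as were 26.7%. The same counts for the 30 higher genes were 17 and 8. Il2ra was higher in tumour Treg than in tumour Tconv by 6.42 log2 units and Penk by 3.33, while Bcl2 was lower there (log2 difference -3.04). This comparison was chosen after the values were seen.

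Penk, Gucy1a3 and Gucy1b3 rose in spleen Tconv with no call in spleen Treg. Unlike Penk, Gucy1a3 and Gucy1b3 were lower in tumour Treg than in tumour Tconv (log2 differences -2.69 and -2.18). Penk, which encodes the opioid precursor proenkephalin, was at 117 and 128 CPM in normal Treg, 155 and 140 in TB Treg, 2.8 and 2.53 in normal Tconv and 11.5 and 14.7 in TB Tconv (interaction -2.04, SE 0.20, edgeR adjusted p = 0.000312), and a gene model on the opposite strand covers 14.3% of its exonic bases. Gucy1a3 and Gucy1b3 encode the 2 chains of soluble guanylate cyclase, which makes cyclic GMP in response to nitric oxide, and both rose about as much in Tconv. Gucy1a3 went from 6.37 and 5.63 to 21 and 19.8 CPM in Tconv (interaction -1.99, SE 0.21, adjusted p = 0.000389), and Gucy1b3 from 3.72 and 4.39 to 13.3 and 12.1 (-1.63, SE 0.28, adjusted p = 0.0169). Neither was called in Treg (Gucy1a3 -0.23, Gucy1b3 0.01). The Gucy1b3 call was held only without TB Treg 1.

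Further genes of this kind were Csf1, which encodes the macrophage growth factor, at 4.08 and 3.67 CPM in normal Tconv and 9.64 and 10.2 in TB Tconv (interaction -1.45, SE 0.15, edgeR adjusted p = 0.000462), and Setbp1, Serpina3f, Nav2 and Lrp5. Nav2 (-1.58, adjusted p = 0.0092) lost its call without TB Treg 1 or TB Tconv 2 (adjusted p up to 0.0565), and Lrp5, a Wnt co-receptor (-1.51, 0.0099), without normal Tconv 1 or TB Treg 2 (up to 0.0535). Setbp1 (-1.79, 0.0368) was held only without normal Treg 2, and Serpina3f, a serine protease inhibitor (-1.81, 0.0333), only without TB Tconv 1. Cd44, the adhesion receptor of antigen-experienced T cells, had 193 and 232 CPM in TB Tconv against 156 and 135 in normal Tconv (-0.72, adjusted p = 0.0212), held only without normal Tconv 1 or TB Tconv 1. Tnfsf11, which encodes RANKL, had an interaction of -0.73 (adjusted p = 0.0188), held only without TB Treg 1 or TB Tconv 2.

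A smaller set of lower genes fell in Treg. Igfbp4 (chr11:99041244-99054392, plus strand), which encodes a binding protein of insulin-like growth factors and is highest in naive T cells, was at 85.4 and 100 CPM in normal Treg and 35.6 and 31.6 in TB Treg, while Tconv held 1053 and 1215 in normal and 1131 and 1146 in TB mice. The Treg groups were apart and the Tconv groups overlapped. Igfbp4 fell by 1.47 log2 units in Treg and differed by 0.01 in Tconv, an interaction of -1.47 (SE 0.13, edgeR adjusted p = 0.000148). Lta, which encodes lymphotoxin alpha, fell in Treg from 40.5 and 44.6 to 27.4 and 24.7 CPM, with 18.1 and 18.3 in normal and 22.4 and 21.8 in TB Tconv (-0.99, SE 0.13, adjusted p = 0.00407). Treml2 (-0.74, adjusted p = 0.0184) and Rasgrp2, an activator of the small GTPase Rap1 (-0.56, 0.0195), fell in Treg with no call in Tconv; Treml2 was held only without TB Treg 1, and Rasgrp2 only without normal Treg 1 or TB Tconv 2. Of 20 naive-state and homing genes 12 fell in Treg and 8 in Tconv, against 8.5% and 7.49% of all tested genes. Fewer fell in Treg without TB Treg 2 or normal Treg 2, and fewer in Tconv without TB Tconv 1 or normal Tconv 2. Igfbp4 and Bcl2 were the 2 called lower in the interaction, against 0.629% of all tested genes.

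Among the genes in the plot of both arms, the largest positive interaction was that of Epas1 (chr17:86753700-86833410, plus strand), which encodes the hypoxia-inducible factor HIF-2 alpha. It was at 3.85 and 4.1 CPM in normal Treg and 17 and 20.9 in TB Treg, and at 36.2 and 33.9 in normal Tconv and 25.6 and 33.2 in TB Tconv. Every TB Treg library stood above every normal Treg library, while TB Tconv lay somewhat below normal Tconv. Epas1 rose 4.76-fold in Treg and its difference in Tconv was not called (log2 change -0.25, edgeR adjusted p = 0.218), an interaction of 2.50 (SE 0.21, adjusted p = 9.82e-05). Of 25 glycolysis and hypoxia genes 0 were called in the interaction, as a share of 0.851% of all tested genes would also give. In Treg 2 of them rose and 1 fell, against 6.8% and 8.5% of all tested genes.

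Fosl2 (chr5:32135801-32157842, plus strand), an AP-1 transcription factor of the Fos family, was at 10.2 and 6.81 CPM in normal Treg and 54.8 and 53.9 in TB Treg, and at 17.2 and 22.6 in normal Tconv and 27.3 and 37.3 in TB Tconv. Its 2 TB Treg libraries were close together. Fosl2 rose 6.38-fold in Treg and 1.63-fold in Tconv, an interaction of 1.97 (SE 0.25, edgeR adjusted p = 0.00207). A part for stimulation or handling in the Fosl2 result was not tested. Of the 28 immediate early genes Fosl2 was the 1 called in the interaction, against 0.851% of all tested genes. Fos (-1.63, SE 1.30, adjusted p = 0.865) and Jun (-1.14, SE 1.09, adjusted p = 0.899) were not called, with replicates far apart.

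Rgs2, Crem and Pde4d, which cyclic AMP is known to induce, rose in both cell types and by more in Treg. They were picked from the 15 named genes with the largest positive interactions, and no list of cyclic AMP-induced genes was counted. A part for cyclic AMP was not tested. Rgs2, a brake on G protein signalling, was at 19.4 and 21.5 CPM in normal Treg, 91.9 and 78.3 in TB Treg, 26.2 and 29.9 in normal Tconv and 41.9 and 38.2 in TB Tconv. It rose 4.17-fold in Treg and 1.43-fold in Tconv (interaction 1.55, SE 0.15, edgeR adjusted p = 0.000266). Normal Treg thus held less Rgs2 than normal Tconv, and TB Treg more than TB Tconv. Crem, a cyclic AMP-responsive transcription factor, was at 24.3 and 23.6 CPM in normal Treg, 101 and 98.4 in TB Treg, 14.1 and 11.8 in normal Tconv and 23.7 and 22.2 in TB Tconv (interaction 1.24, SE 0.13, adjusted p = 0.000312). Pde4d, a phosphodiesterase that breaks down cyclic AMP, was at 65.9 and 68.4 in normal Treg, 202 and 194 in TB Treg, 129 and 130 in normal Tconv and 195 and 180 in TB Tconv (1.03, SE 0.10, adjusted p = 0.000294). For Pde4d the cell types differed in normal mice and overlapped in TB mice. All 3 calls were kept in all 8 leave-outs.

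The upstream 250 bases of Rgs2 and of Bcl2 (RefSeq, GRCm38.p6) are shown because their interactions had opposite signs, although neither gene fell, and each holds 1 match, in capitals, to TGACGT or its reverse complement, the core of the cyclic AMP response element that CREB and CREM proteins bind.
Rgs2, chr1:144004150-144004399, minus strand: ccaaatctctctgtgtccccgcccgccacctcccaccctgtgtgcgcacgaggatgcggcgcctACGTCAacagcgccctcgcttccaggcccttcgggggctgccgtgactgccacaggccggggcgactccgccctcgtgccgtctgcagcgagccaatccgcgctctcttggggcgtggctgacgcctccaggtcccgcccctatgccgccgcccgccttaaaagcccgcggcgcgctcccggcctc
Bcl2, chr1:106714291-106714540, minus strand: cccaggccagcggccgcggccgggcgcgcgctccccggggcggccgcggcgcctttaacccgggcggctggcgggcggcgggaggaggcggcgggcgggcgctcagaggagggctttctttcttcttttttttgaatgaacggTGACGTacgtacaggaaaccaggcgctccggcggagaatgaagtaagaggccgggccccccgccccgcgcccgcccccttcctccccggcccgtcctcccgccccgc
The match begins 186 bases before the start of Rgs2 and 107 before that of Bcl2. In windows from 250 bases before to 50 after the start it was found in 3 of 20 higher genes (15%) and 8 of 54 lower genes (14.8%), against 8.37% of the 27025 genes and 7.51% of the promoters. The higher and lower genes thus held it at nearly the same share.

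Rnf125 and Rnf157, which encode ubiquitin ligases, and Phlpp1, a phosphatase that acts on Akt, also rose in both and more in Treg. Rnf157 went from 14.6 and 10.1 to 66 and 70 CPM in Treg and from 14.1 and 15.3 to 23.2 and 33.2 in Tconv (interaction 1.51, SE 0.24, edgeR adjusted p = 0.0117), and lost its call without TB Treg 2 or normal Tconv 2 (adjusted p up to 0.0811). Rnf125 had an interaction of 1.09 (SE 0.13, adjusted p = 0.00162). Phlpp1 went from 75.8 and 79.7 to 188 and 190 CPM in Treg and from 19.3 and 20 to 23 and 26.4 in Tconv (0.95, SE 0.10, adjusted p = 0.000623), so that its Tconv mean was 25.3% of the Treg mean in normal mice and 13.1% in TB mice.

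Sgms1 and Fam46a rose in Treg and fell in Tconv. Sgms1, which encodes a sphingomyelin synthase, went from 41 and 42.9 to 73.1 and 70 CPM in Treg and from 105 and 103 to 82.5 and 76.3 in Tconv (interaction 1.16, SE 0.10, edgeR adjusted p = 9.82e-05). Fam46a, now named Tent5a, a poly(A) polymerase gene, went from 42.4 and 39.1 to 95.3 and 132 in Treg and from 106 and 100 to 66.3 and 76.6 in Tconv (2.01, SE 0.20, adjusted p = 0.000312). For Sgms1 the cell types were nearer each other in TB than in normal mice. The interactions were 1.02 for Emb, which encodes the adhesion molecule embigin (SE 0.10, adjusted p = 0.000264), and 0.83 for Snx13, a sorting nexin (SE 0.12, adjusted p = 0.00441), and both genes rose in Treg with no call in Tconv.

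Genes of fatty acid and triglyceride metabolism were also found among the higher genes. Elovl6, which lengthens fatty acids, was at 28 and 31.7 CPM in normal Treg and 54.4 and 55.4 in TB Treg (interaction 1.14, edgeR adjusted p = 0.0184, held only without normal Tconv 1), and Dgat1, which completes triglyceride synthesis, at 18.4 and 19.5 and at 39.8 and 41.3 (0.78, 0.0287, held only without TB Tconv 1). They were the 2 called in the interaction of 21 fatty acid and triglyceride genes, against 0.851% of all tested genes. Ust, which encodes a sulphotransferase (1.13, 0.0368), was held only without normal Treg 1.

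Cx3cr1, the fractalkine receptor, had a wide difference at a low level. It was at 0.502 and 0.623 CPM in normal Treg, 5.52 and 5.46 in TB Treg, 3.72 and 3.53 in normal Tconv and 1.88 and 2.92 in TB Tconv (interaction 3.86, SE 0.33, edgeR adjusted p = 9.82e-05). Myeloid cells also express it, so myeloid transcripts are given beside it: the summed level of 16 macrophage and monocyte markers was 78.3 to 116 CPM in normal Treg, 107 to 177 in TB Treg, 34.5 to 37.2 in normal Tconv and 45.6 to 57.4 in TB Tconv. Most of that sum was Ccr2, a chemokine receptor that T cells also express, and without it the other 15 markers summed to 16.3 to 17.6 CPM in normal Treg, 23.6 to 32.9 in TB Treg, 11.3 to 12 in normal Tconv and 13.1 to 14 in TB Tconv. Lyz2 was at 0.126 and 0.089 CPM in normal Treg and 0.736 and 2.58 in TB Treg. Csf1r was at 0 and 0.089 and at 0.572 and 0.889. Both were higher in TB Treg 2 than in TB Treg 1. Cd68 was at 3.47 and 2.09 CPM in normal Treg and 4.7 and 4.7 in TB Treg. Hmox1 was at 7.66 and 5.12 and at 7.52 and 7.75. Cd68, Hmox1 and Cx3cr1 were each about level between the 2 TB Treg libraries. Summed neutrophil markers (12 genes) were 0.502 to 0.757 in normal Treg and 2.25 to 10.3 in TB Treg. Of 16 macrophage and monocyte and 11 neutrophil markers tested, 0 were called in the interaction, as a share of 0.851% of all tested genes would also give. The median interactions of the 2 lists were 1.53 and 1.66, against -0.02 over all tested genes, with many members near 0 CPM. With a filter of mean CPM of at least 1 in spleen, the macrophage and monocyte median was -0.15. In Treg 1 gene of each list rose, against 6.8% of all tested genes. The part of these markers in the Epas1, Fosl2 and Cx3cr1 results was not tested.

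**Figure D4:**
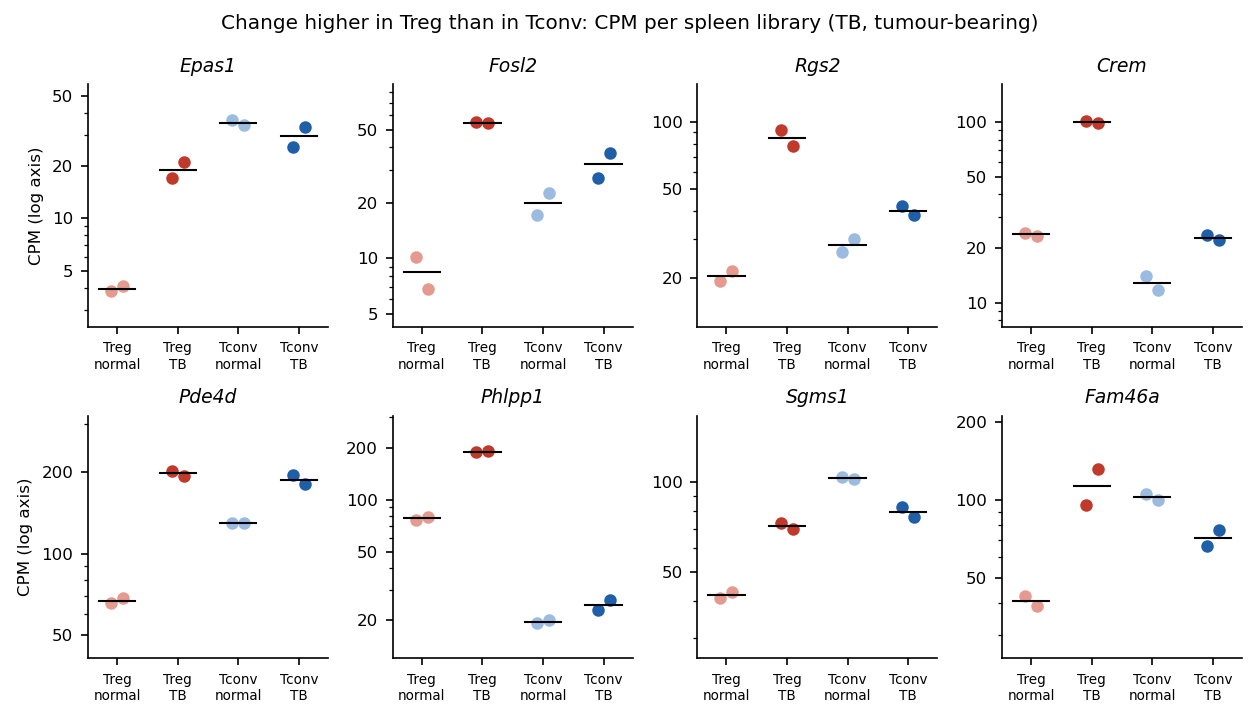
CPM on a log axis in each of the 8 spleen libraries for Epas1, Fosl2, Rgs2, Crem, Pde4d, Phlpp1, Sgms1 and Fam46a; points are single libraries, bars are group means, and each panel has its own axis. In each panel TB Treg stands above normal Treg with no overlap, and TB Tconv is below normal Tconv for Epas1, Sgms1 and Fam46a.

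Several lists held many genes that changed in each cell type and few or none that were called in the interaction, where 0.851% of all tested genes were called. Of 25 sterol synthesis and uptake genes, which SREBP2 controls, 21 fell in Treg and 17 in Tconv, against 8.5% and 7.49% of all tested genes, and 0 were called in the interaction. The Tconv count was 10 without normal Tconv 1 or TB Tconv 1, and without both TB libraries of replicate 1 the counts were 14 and 8. The list's median change was -0.70 in Treg and -0.44 in Tconv. Abca1, which exports cholesterol, rose by 1.03 and 1.07 log2 units in Treg and Tconv (interaction -0.03, adjusted p = 1).

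Of 16 glucocorticoid-responsive genes 7 rose in Treg and 8 in Tconv (5 without normal Tconv 1), against 6.8% and 9.74% of all tested genes, and 6 and 6 without both TB libraries of replicate 1, among them Fkbp5 (interaction -0.64, edgeR adjusted p = 0.246), Per1 (0.01, adjusted p = 1), Klf9 (-0.78, 0.371) and Zfp36l2 (0.01, adjusted p = 1). Zfp36l2 rose 2.64-fold in Treg and 2.62-fold in Tconv. The gene of the glucocorticoid receptor itself, Nr3c1, was at 243 and 236 CPM in normal Treg and 370 and 366 in TB Treg but at 275 and 266 in normal and 288 and 277 in TB Tconv. Its interaction of 0.56 (SE 0.11, adjusted p = 0.043) lost its call in each of the 8 leave-outs (0.53 to 0.59, adjusted p up to 0.199).

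Some genes of protein synthesis and energy were called lower, in numbers that changed with single libraries. In Treg and Tconv, 18 and 12 of 32 cytosolic ribosomal protein genes fell, 13 and 10 of 27 oxidative phosphorylation genes, and 13 and 11 of 22 heat shock and chaperone genes, against 8.5% and 7.49% of all tested genes, with 0 interaction calls in the 3 lists. Scaling by total count alone gave fewer of these falls: 15 and 7, 9 and 4, and 12 and 8. Ribosomal falls in Treg numbered 1 without TB Treg 2 or normal Treg 2, and those in Tconv 1 without normal Tconv 1 or normal Tconv 2 and 0 without TB Tconv 1. Oxidative phosphorylation falls reached down to 3 in Treg without normal Treg 2 and 1 in Tconv without normal Tconv 2, and heat shock falls to 8 in Treg without normal Treg 2 and 5 in Tconv without normal Tconv 1 or TB Tconv 2. Without both TB libraries of replicate 1 the 3 pairs were 13 and 0, 5 and 0, and 10 and 6. Of 22 mitosis genes and 22 replication genes 0 were called in the interaction, as in 30 type I interferon genes. A share of 0.851%, that of all tested genes, would also give few or none in each list. In all, 593 of the 640 distinct genes of the 41 lists were tested. Of these, 25 were called in the interaction, against 0.851% of all tested genes.

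**Figure D5:**
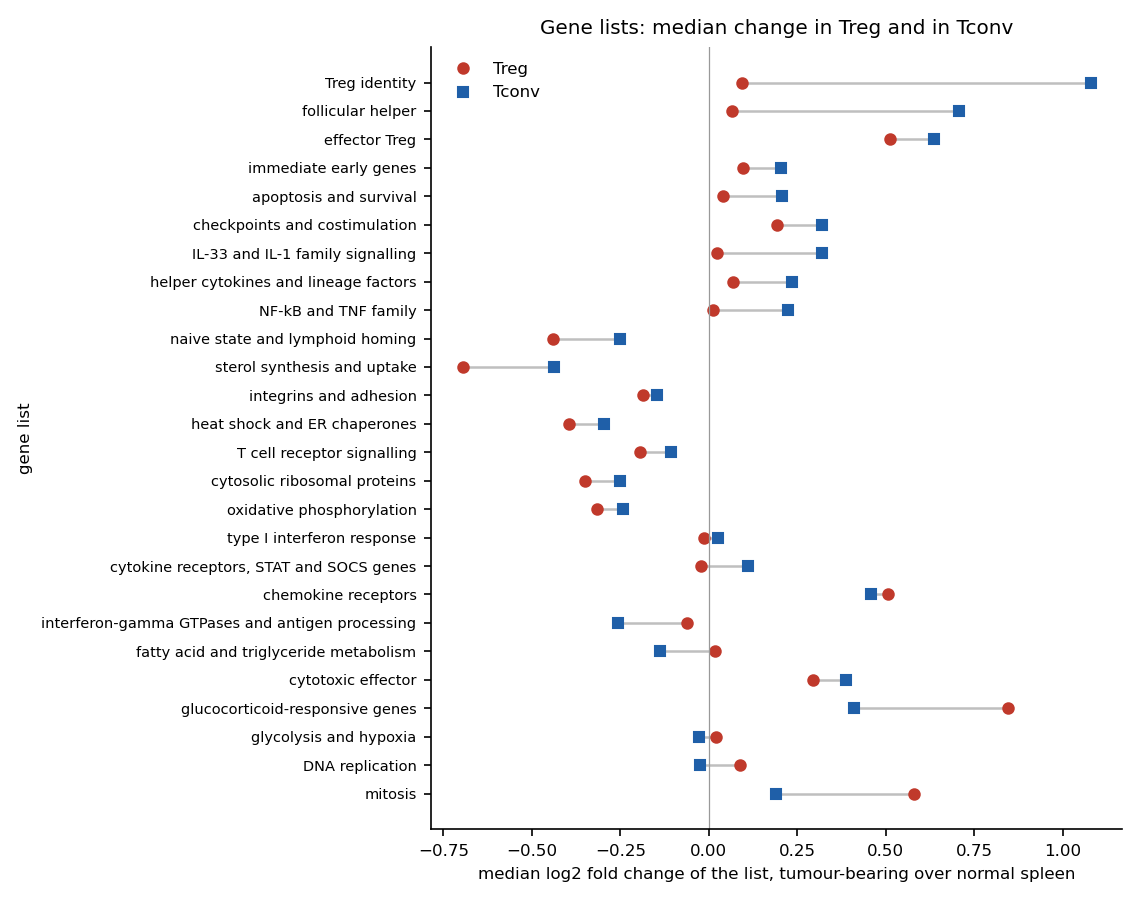
Median log2 fold change of TB over normal spleen for the tested members of 26 gene lists, in Treg (red circles) and Tconv (blue squares), ordered by the median interaction. Treg identity shows the widest gap, from 0.09 in Treg to 1.08 in Tconv, while sterol synthesis lies below 0 in both.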

How the data were processed

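The deposited table holds unnormalised gene counts for each library, made with STAR and featureCounts on mm10 per the submitters' processing notes, with no versions. Per the labels' protocols, libraries came from a stranded mRNA kit. No source used here says whether counting used strand; gene models of GENCODE M21 overlap over 10% of the exonic bases of 7 of the 115 interaction genes.

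Genes were kept with filterByExpr by group, scaled by TMM and fitted with edgeR 4.0.16 (R 4.3.3) as 6 group means over all 12 libraries (6 residual degrees of freedom; no replicate block). Quasi-likelihood F tests were two-sided, adjusted by Benjamini-Hochberg over 13509 genes. Some genes passed the filter through tumour libraries. CPM use TMM-scaled library sizes. SE is the log2 change over the root of F. Alternatives used DESeq2 1.42.0 and limma-voom 3.58.1.

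Named genes were Foxp3 and Il1rl1, the 15 largest separated interactions in each direction at a mean log2 CPM of at least 3 without gene models, segments or pseudogenes, and up to 5 called genes per list. Other names were chosen after their values were seen. The lists, markers and members were chosen with earlier results of these data known. On simulated counts (13032 genes) the interaction test found 88% of 100 genes given a shift of 1 log2 unit and 24% of 100 given 0.5. Of its 124 calls 12 were false. Shifts were given to TB Treg alone, in genes above a minimum mean CPM, with equal means in all other groups and the fitted dispersions. The 88% and 24% therefore do not cover genes of lower level. Promoters are from RefSeq (GRCm38.p6). Figures used matplotlib 3.10.9. Some items are not reported here.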

Additional observations from a re-analysis of the deposited data

Results flagged for a closer look

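The effect of tumour bearing differed between Treg and Tconv for 115 genes by edgeR's test of the interaction. Among them, 9 were called in both cell types with opposite signs, and their interactions follow in log2 units. Sgms1 (1.16) and Fam46a (2.01) rose in Treg and fell in Tconv. The other 7 fell in Treg and rose in Tconv: Drc1 (-4.14), Angptl2 (-1.62), Gpr83 (-1.08), Nrp1 (-0.94), Foxn3 (-0.80), Lrmp (-0.64) and Pacs2 (-0.48).

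Drc1, which encodes a subunit of the dynein regulatory complex of cilia, was the widest of these. It was at 5.65 and 6.14 CPM in normal Treg, 1.88 and 1.74 in TB Treg, 4.28 and 3.72 in normal Tconv and 22 and 21.4 in TB Tconv. Angptl2, which encodes a secreted angiopoietin-like protein, went from 67.9 and 56.8 to 42.5 and 40.5 CPM in Treg and from 28.5 and 21.3 to 49.6 and 51.9 in Tconv. Of the 9, the calls of Nrp1 and Lrmp were each lost in 6 of the 8 leave-outs and that of Pacs2 in all 8, while the other 6 were kept in all 8. Without both TB libraries of replicate 1, Drc1, Sgms1 and Fam46a kept their calls and the other 6 lost them.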

How the results depend on the processing

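Counts of genes with a higher and a lower interaction were 30 and 85. They were 63 and 148 with DESeq2's Wald test, 47 and 137 with no filter, 77 and 243 with a fit of the 8 spleen libraries alone (arms 3539 in Treg and 3651 in Tconv), and 13 and 30 at an adjusted p under 0.01 (arms 795 and 932). Leaving out 1 spleen library gave 14 to 18 higher and 28 to 61 lower genes, with 512 to 2001 calls in the Treg arm and 751 to 1973 in the Tconv arm; the fewest came without normal Tconv 2 for the interaction and the Tconv arm and without normal Treg 2 for the Treg arm. The lone sample is then assumed to vary like the other groups. Leaving out both TB libraries of replicate 1, chosen after seeing the data, gave 13 and 28, with arms of 728 and 779.

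Replicate numbers are shared but nothing ties them to mice, and the description numbers of normal mice differ from their titles. Same-numbered deviations correlated at 0.23 between TB Treg and TB Tconv, 0.19 between normal Treg and normal Tconv, and between -0.11 and 0.06 for the other pairs. With a replicate block by title number the counts were 33 and 108. With a replicate block by mouse status and description number, which leaves 3 residual degrees of freedom, they were 13 and 29; this block admits no test of the arms. Fits with other scaling or robust dispersion stayed within 1.5 times, as did limma-voom (22 and 60). Of 92 called genes followed, 0 reversed in any alternative and 32 kept their call in every leave-out. Depth and 2 libraries per group limit genes of low level and differences near 0.5 log2 units.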
